A study of Mus musculus with 6 samples.

Results

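The numbered Zfp genes from Zfp600 to Zfp999 were described here in mouse embryonic stem cells, in libraries labelled Rif1-KO and in control libraries. The members were all gene symbols of the count tables made of Zfp and a 3-digit number whose first digit is 6, 7, 8 or 9, and 142 of the 33924 symbols fitted. The rule reads the symbol alone, although it was set with earlier results of these data known. RNA of the mouse embryonic stem cell line E14 was sequenced in 3 libraries labelled Rif1-KO and 3 labelled control (WT), to ask what loss of Rif1 does to gene expression. Rif1 encodes a chromatin protein known for setting replication timing, for break repair and for silencing. Per the labels, all 6 cultures grew on gelatin in 2i, a medium whose kinase inhibitors hold the cells in naive pluripotency, and had 0.1 µM 4-hydroxytamoxifen (4-OHT) for 2 days and 1 further day without it. The headers of the files, however, name the Rif1-KO group with TAM and the control group with 2i, so a difference in drug or medium between the groups cannot be told apart from genotype. The sources used here do not say how Rif1 was disrupted or whether the replicates were separate cultures. The p-values therefore measure only how these samples spread, a spread that may be technical.

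Zfp symbols are given to mouse genes for zinc finger proteins, mostly of the C2H2 kind, in which short loops folded around a zinc ion read DNA. Many of them carry a KRAB domain in front of the fingers. KRAB zinc finger proteins bind set DNA sequences, often in endogenous retroviruses, and recruit the corepressor TRIM28 (KAP1), which brings the histone methyltransferase SETDB1 and leads to H3K9 trimethylation and silencing. Their genes arose by repeated tandem duplication and lie in clusters on several chromosomes, and embryonic stem cells depend on this pathway to hold retroviral elements silent.

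Of the 142 members, 139 were annotated as protein coding and 3 as pseudogenes. A KRAB A-box pattern was found in the translated coding sequence of 87 members and not in the other 55, and at least 1 C2H2 finger was found in 133, with up to 33 fingers in Zfp619. The pseudogenes were Zfp783, Zfp939 and Zfp640. The members lay on 20 chromosomes. For 33 members, over 10% of the 50-base stretches of their transcripts also occurred in another gene, and for 6 members over 50% did, so the counts of these members are uncertain.

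The largest cluster, with 11 tested members on chromosome 17, held start regions with a motif in common, and the stretches around it are shown because the members of this cluster are compared further on. The sequences are from RefSeq (build GRCm38.p6), in the 250 bases before the first listed start of each gene, and each runs 5′ to 3′ on the gene's own strand. The capitals mark CACGTG, the E-box, which reads the same on both strands. The counts were made on mm9, so these coordinates belong to another build than the counts. Zfp942 and Zfp943 are divergent and share 1 E-box, as do Zfp944 and Zfp758, and the bases shown for both pairs matched.
Zfp820, chr17:21845846-21845905, minus strand: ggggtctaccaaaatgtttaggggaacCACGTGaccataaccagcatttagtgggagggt
Zfp942, chr17:21962486-21962545, minus strand: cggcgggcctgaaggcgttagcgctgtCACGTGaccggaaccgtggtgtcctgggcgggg
Zfp943, chr17:21962486-21962545, plus strand: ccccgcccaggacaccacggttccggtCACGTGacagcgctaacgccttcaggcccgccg
Zfp947, chr17:22166016-22166075, minus strand: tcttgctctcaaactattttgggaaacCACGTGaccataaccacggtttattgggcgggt
Zfp944, chr17:22361401-22361456, minus strand: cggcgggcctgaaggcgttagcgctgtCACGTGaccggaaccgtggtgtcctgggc
Zfp758, chr17:22361397-22361456, plus strand: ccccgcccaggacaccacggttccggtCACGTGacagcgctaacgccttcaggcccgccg
Zfp946, chr17:22424165-22424201, plus strand: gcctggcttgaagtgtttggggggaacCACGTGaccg
The E-box stood in the window of 7 of the 11 members of the cluster, at 5 places. It stood in 14 of the 112 tested members that have a start region in the table (12.5%), in 8.72% of the tested genes that have one, and in 6.05% of all 27025 start regions of the same length. A match of letters is a description and not a binding site.

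The libraries held 8383632 to 10980777 counts each. Levels are given as CPM, the usual scaling of a gene's count to the total of its library, here after TMM correction of the totals. Libraries of a group correlated across genes at 0.991 to 0.994 in log CPM, and libraries of different groups at 0.961 to 0.963. Rif1 itself had 602, 604 and 664 CPM in libraries labelled Rif1-KO, against 673, 657 and 700.1 CPM in control. These values overlapped, and the log2 fold change of −0.12 ± 0.05 (SE) had an adjusted p of 0.0509. Reads were counted over the gene as a whole, which would not reveal a lost exon, so Rif1 does not check the labels. Marker sums also differed between the groups. Stem cell markers summed to 3219 to 3288 CPM in libraries labelled Rif1-KO and 3405 to 3444 CPM in control. Among them Sox2 alone was lower, with a mean of 469 CPM in libraries labelled Rif1-KO and 683 CPM in control. Nanog and Klf4 were higher, and Pou5f1, Zfp42 and Esrrb did not pass. Markers of the two-cell-like state summed to 18.3 to 20.5 CPM in libraries labelled Rif1-KO and to at most 0.364 CPM in control, and trophectoderm markers to 147 to 162 CPM in libraries labelled Rif1-KO and 56.7 to 57.8 CPM in control (with Cdx2 at 0). Neuroectoderm markers summed to 114 to 121 CPM in libraries labelled Rif1-KO and 53.2 to 65.2 CPM in control, and primitive endoderm markers to 30.3 to 32.8 CPM in libraries labelled Rif1-KO and 15.7 to 17.3 CPM in control. The sums of the fibroblast markers overlapped, at 15.5 to 16.4 CPM in libraries labelled Rif1-KO and 14.5 to 23.2 CPM in control, but of the 4 tested ones Twist1 and Pdgfra were higher and Thy1 was lower. All 5 tested two-cell-like and all 5 tested primitive endoderm markers were higher, as were 2 of 3 trophectoderm, 3 of 4 neuroectoderm and 2 of 6 stem cell markers. The other tested trophectoderm marker, Eomes, did not pass, and the other tested neuroectoderm marker, Tubb3, was lower (adjusted p = 0.00791 by edgeR). Most of the neuroectoderm sum was Nes (mean 99.8 CPM in libraries labelled Rif1-KO, 46.2 CPM in control). Most of the trophectoderm sum was Krt8 (74.2 and 22.5 CPM) and Krt18 (69.9 and 25.8 CPM). The part of these markers in the changes of the Zfp members was not tested, and in bulk RNA fewer cells of a type and less RNA per cell cannot be told apart.

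As a group the Zfp members were read at nearly the same total in both groups, and a smaller share of them passed than of all tested genes. Their CPM summed to 3488, 3480 and 3626 in libraries labelled Rif1-KO and to 3491, 3486 and 3503 in control. Each library thus gave them between 0.342% and 0.361% of its counts. Of the 142 members, 132 had enough counts to be tested, and 20 of these were higher in libraries labelled Rif1-KO, 27 were lower and 85 did not pass (edgeR's quasi-likelihood test, Benjamini-Hochberg adjusted p under 0.05 over all 14250 tested genes). That is 35.6% of the tested members, beside 50.9% of all tested genes. Higher calls made up 15.2% of members and 26.1% of all genes, and lower calls 20.5% and 24.8%. The median log2 fold change was −0.06 over the tested members and 0.00 over all tested genes. The libraries of the groups did not overlap in 52 members (39.4%), beside 57.2% of all genes.

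The members had a median mean of 12.2 CPM, lower than the 26.9 CPM of all tested genes. Within each band of mean CPM the share of called members was still the smaller one, with 26.1% of members against 34.3% of all tested genes below 5 CPM, 30.8% against 44.1% from 5 to 20 CPM, 45.7% against 56.0% from 20 to 100 CPM, and 55.6% against 68.2% above that. The bands held 23, 65, 35 and 9 members. The other numbered Zfp genes, with numbers outside this range, were called at nearly the same rate as the members, with 25 higher and 40 lower of 185 tested (35.1%).

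The log2 fold changes of the members ran from −0.74 to 1.86, and 113 of 132 lay within 0.5 of 0 (85.6%), beside 78.7% of all tested genes. The median size of the change, leaving aside its sign, was 0.22 on the log2 scale for members and 0.25 for all tested genes. A change of at least 2-fold was called for 4 members that rose, Zfp711, Zfp703, Zfp784 and Zfp677, and for none that fell, beside 748 higher and 186 lower genes in the whole table. The lowest log2 fold change of any tested member, −0.74, was short of 2-fold. The 10 members left untested had between 0 and 13 counts per library, and Zfp648, Zfp781 and Zfp616 had none in any library.

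**Figure D1:**
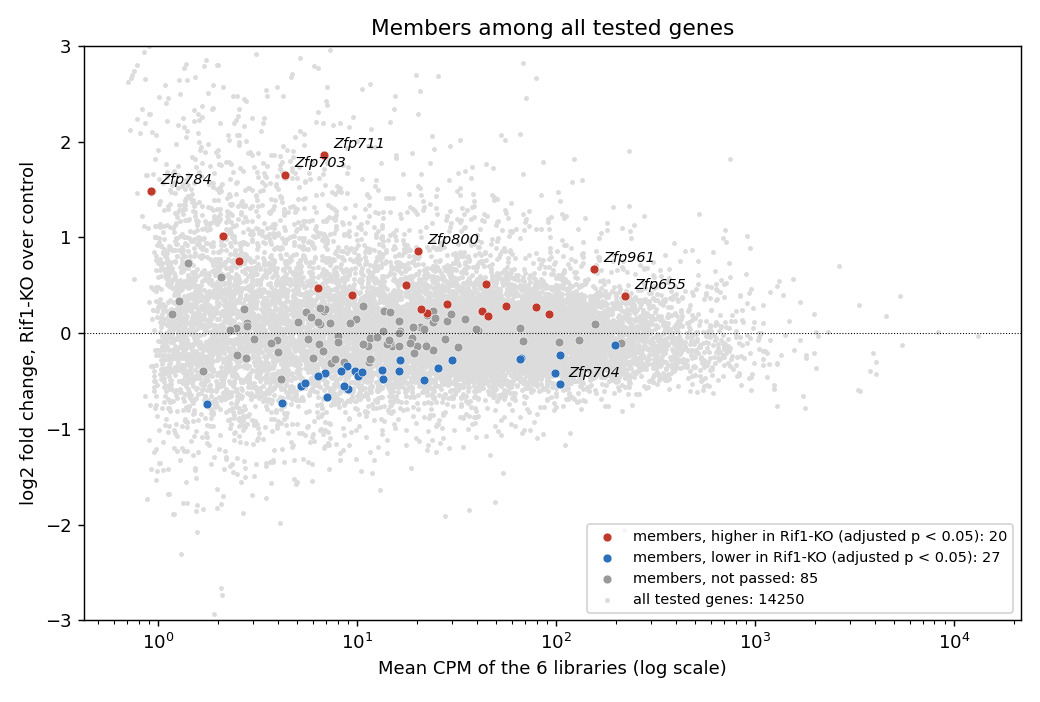
Log2 fold change, Rif1-KO over control, against the mean CPM of the 6 libraries on a log axis, for the 132 tested Zfp members over all 14250 tested genes (79 genes beyond 3 on the log2 scale lie outside the plot). The 20 higher members include Zfp711 and Zfp703 at low levels and Zfp961 and Zfp655 at high levels, and no lower member reached −1.

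The balance of higher and lower calls depended on a correction for transcript composition. When each library was given an offset for the GC content and length of transcripts, 14 members were higher and 49 lower (47.7% called), against 20 and 27 without it. The calls over all tested genes moved the same way, with 2841 higher and 4823 lower (53.8% called) with the offset and 3722 higher and 3529 lower without it. The offset also shifted the centre of the whole table, whose median was −0.0855 with it and 0.00347 without it on the log2 scale, and the median of the members was −0.18 with it. Relative to all genes the members thus stood at −0.09 with the offset and at −0.06 without it. The members were poor in GC, with a median transcript GC content of 43.5% against 50% over all tested genes. Among all genes below 40% GC, 37.5% were higher and 13% lower, whereas among the 38 tested members below 40% GC, 15.8% were higher and 10.5% lower.

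The largest increases by fold were 2 genes outside the KRAB class, both read at low levels. Zfp711 is an X-linked gene whose human counterpart is linked to intellectual disability and binds the histone demethylase PHF8. It stood at 8.86, 11.8 and 11.6 CPM in libraries labelled Rif1-KO and at 2.05, 2.55 and 4.20 CPM in control. Every library labelled Rif1-KO was above every control library, and the log2 fold change was 1.86 ± 0.20 (adjusted p = 2.70e-07), the largest of all tested members. Zfp703, a corepressor of the NET family known as an oncogene in human breast cancer, had 6.87, 6.97 and 6.12 CPM in libraries labelled Rif1-KO and 3.14, 1.46 and 1.66 CPM in control. The groups did not overlap, and the log2 fold change was 1.65 ± 0.22 (adjusted p = 3.79e-06). No C2H2 finger of the searched form was found in Zfp703, and 11.7% of its 50-base stretches occurred in another gene.

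Zfp800 rose less by fold than Zfp784 and Zfp677 but was read at a middle level. It had 26.1, 25.1 and 27.1 CPM in libraries labelled Rif1-KO and 14.4, 15.8 and 13.1 CPM in control, a log2 fold change of 0.86 ± 0.10 (adjusted p = 3.24e-07) with no overlap. Zfp677, a KRAB member of the chromosome 17 cluster, averaged 2.83 ± 0.219 CPM in libraries labelled Rif1-KO and 1.40 ± 0.256 CPM in control (SD, n = 3 each, adjusted p = 0.00259 by edgeR). Zfp784 had 1.72, 1.31 and 1.09 CPM in libraries labelled Rif1-KO and 1.08, 0.243 and 0.111 CPM in control, with a log2 fold change of 1.48 ± 0.49 (adjusted p = 0.0158). Its lowest library labelled Rif1-KO and its highest control library lay next to each other, and 94.7% of its 50-base stretches occurred in another gene. The log2 fold change of Zfp784 was 2.91 without control replicate 1. DESeq2 did not call it (adjusted p = 0.0846), and neither did the fits that left out control replicate 2 or 3 or Rif1-KO replicate 1, where the adjusted p was up to 0.105.

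A further pair of increases was found in the members read most per kilobase. Zfp961, a KRAB protein reported to bind the primer binding site of lysine-primed retroviral elements, was the highest member, with a mean of 57.7 CPM per kilobase of transcript. It had 184, 188 and 204 CPM in libraries labelled Rif1-KO and 119, 128 and 117 CPM in control. The groups stood far apart, with a log2 fold change of 0.67 ± 0.05 (adjusted p = 2.86e-09). Zfp655, whose human counterpart is known to bind the signalling protein VAV, had 253, 256.2 and 249.9 CPM in libraries labelled Rif1-KO and 201, 184 and 194 CPM in control (53.6 CPM per kilobase over the 6 libraries). It was higher in every library labelled Rif1-KO, by 0.39 ± 0.05 on the log2 scale (adjusted p = 7.82e-07). With the GC and length offset the log2 fold changes were 0.48 for Zfp961 and 0.20 for Zfp655, and both kept their calls under all 15 alternatives. The next members in level per kilobase did not pass. Zfp710 averaged 204 ± 11.2 CPM in libraries labelled Rif1-KO and 219 ± 8.63 CPM in control (36.0 CPM per kilobase, adjusted p = 0.0774 by edgeR; 0.0103 with the GC and length offset). Zfp706, known to promote the exit of embryonic stem cells from self-renewal, averaged 163 ± 21.8 CPM in libraries labelled Rif1-KO and 153 ± 15.5 CPM in control (35.8 CPM per kilobase, adjusted p = 0.323 by edgeR). It was called higher without control replicate 1 (log2 0.18, adjusted p = 0.0422) and without Rif1-KO replicate 3 (log2 0.19, adjusted p = 0.0149).

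The start regions of these 2 most highly read members are given next, in full over the 250 bases before the first listed start (RefSeq, GRCm38.p6), since both rose and neither shares transcript sequence with another gene. The capitals mark matches to AGGCCT, the core read by ZFX and ZFP711, and to CCGGAAG, an ETS core, which were searched on both strands together with CACGTG and TATAAA and did not overlap each other.
Zfp961, chr8:71950816-71951065, plus strand: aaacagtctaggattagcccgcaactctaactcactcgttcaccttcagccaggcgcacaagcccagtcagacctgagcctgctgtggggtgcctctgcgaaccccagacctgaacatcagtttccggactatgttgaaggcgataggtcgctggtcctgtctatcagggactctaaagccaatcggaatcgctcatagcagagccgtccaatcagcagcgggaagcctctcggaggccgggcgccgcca
Zfp655, chr5:145231492-145231741, plus strand: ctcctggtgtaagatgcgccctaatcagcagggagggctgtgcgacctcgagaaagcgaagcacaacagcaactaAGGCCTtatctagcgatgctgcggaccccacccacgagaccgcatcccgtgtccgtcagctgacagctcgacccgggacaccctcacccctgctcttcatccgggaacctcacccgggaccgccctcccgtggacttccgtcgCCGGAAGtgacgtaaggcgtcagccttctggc
None of the 4 motifs was found in the Zfp961 window, and Zfp655 held AGGCCT at −175 and CCGGAAG at −32 from its start. Of all 27025 start regions, 8.70% held AGGCCT, 7.05% CCGGAAG and 13% TATAAA.

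The remaining large increases were smaller than 2-fold. Zfp941, a KRAB member on chromosome 7, averaged 52.4 ± 2.54 CPM in libraries labelled Rif1-KO and 36.7 ± 1.40 CPM in control (log2 fold change 0.51 ± 0.07, adjusted p = 2.54e-06). Zfp867, a KRAB member on chromosome 11, averaged 20.7 ± 2.24 CPM in libraries labelled Rif1-KO and 14.6 ± 0.685 CPM in control (0.50 ± 0.10, adjusted p = 4.13e-04). Neither showed overlap between groups. Zfp637 averaged 7.45 ± 0.664 CPM in libraries labelled Rif1-KO and 5.33 ± 0.634 CPM in control (adjusted p = 0.0144). Its call was lost with DESeq2 and without control replicate 2 or 3, with an adjusted p of up to 0.117.

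**Figure D2:**
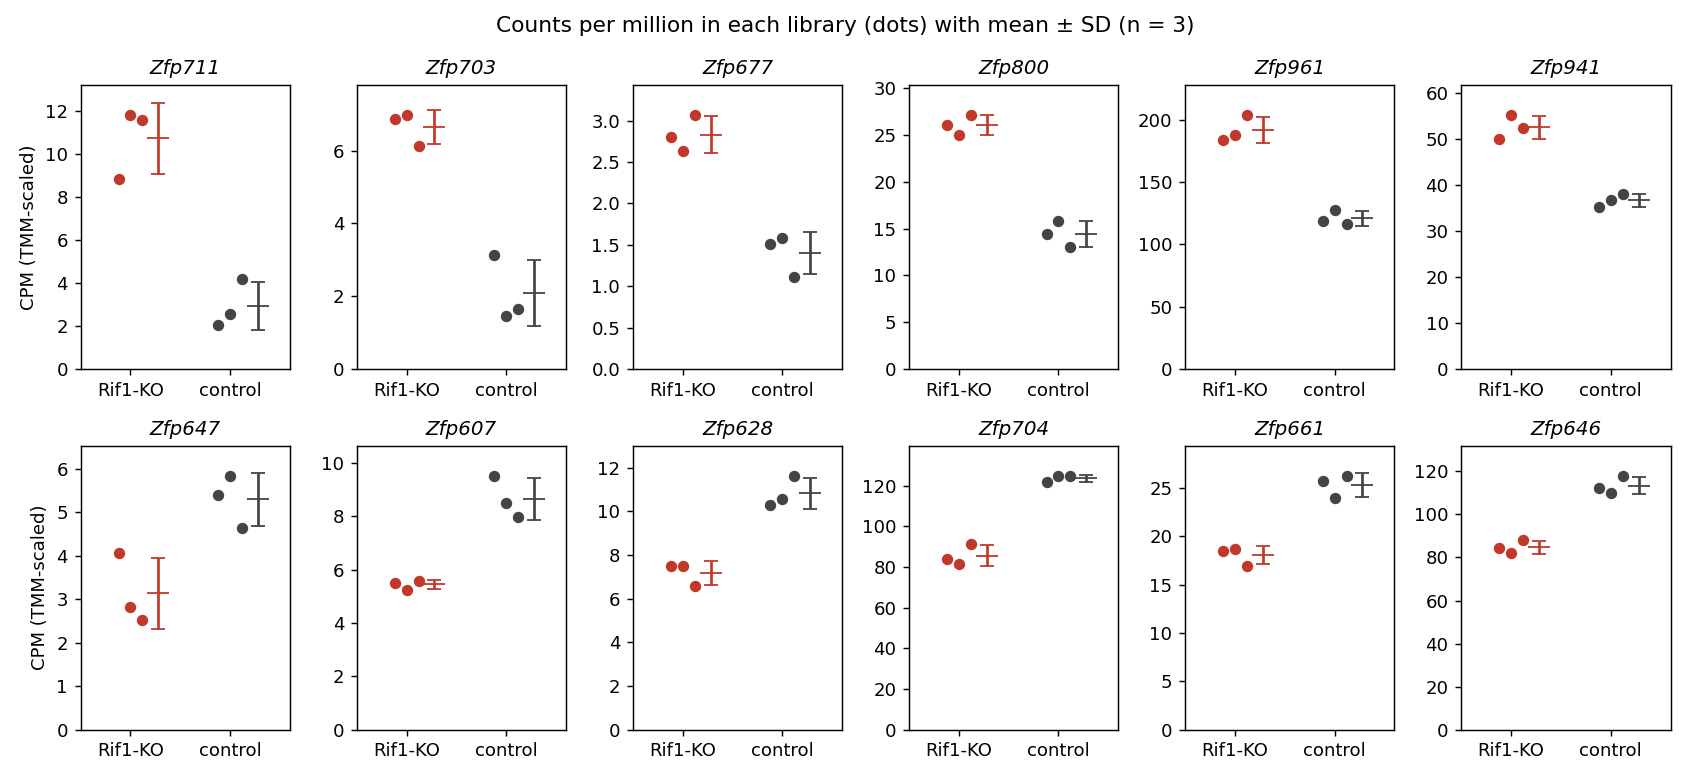
CPM in each library (dots) with mean and SD (n = 3 per group), libraries labelled Rif1-KO left of control, for 6 members that were higher (upper row) and 6 that were lower (lower row). In none of these 12 genes did the groups overlap, and the y axes start at 0.

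The decreases with the lowest adjusted p were those of Zfp704, Zfp646 and Zfp661, and these calls were kept under all 15 alternatives. Zfp704, a member outside the KRAB class with a single finger found, had 83.8, 81.4 and 91.2 CPM in libraries labelled Rif1-KO and 122, 125 and 125 CPM in control. The groups stood apart, with a log2 fold change of −0.53 ± 0.05 (adjusted p = 6.18e-08). Zfp646, a 27-finger gene of chromosome 7, had 84.5, 82 and 88 CPM in libraries labelled Rif1-KO and 112, 110.1 and 118 CPM in control. It was lower in every library labelled Rif1-KO, by a log2 fold change of −0.42 ± 0.05 (adjusted p = 1.25e-06). Zfp661, a KRAB member on chromosome 2, had 18.4, 18.7 and 17 CPM in libraries labelled Rif1-KO against 25.7, 23.9 and 26.2 CPM in control, with a log2 fold change of −0.49 ± 0.09 (adjusted p = 1.12e-04).

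The largest log2 decreases were in members with few counts. Zfp647 averaged 3.14 ± 0.820 CPM in libraries labelled Rif1-KO and 5.29 ± 0.601 CPM in control (−0.73 ± 0.20, adjusted p = 0.00504). Zfp607, a KRAB member with 18 fingers, averaged 5.45 ± 0.172 CPM in libraries labelled Rif1-KO and 8.66 ± 0.787 CPM in control (−0.67 ± 0.14, adjusted p = 6.11e-04). Zfp628, a 16-finger gene known from male germ cells, averaged 7.18 ± 0.535 CPM in libraries labelled Rif1-KO and 10.8 ± 0.705 CPM in control (−0.59 ± 0.13, adjusted p = 7.91e-04). In these 3 genes the groups did not overlap. Zfp934 had the most negative fold change (−0.74 ± 0.27, adjusted p = 0.0294), at 1.36, 1.52 and 1.09 CPM in libraries labelled Rif1-KO against 2.38, 2.43 and 1.88 CPM in control, and 40.1% of its 50-base stretches occurred in another gene. The call on Zfp934 was lost with DESeq2 and without control replicate 1 or 2 or Rif1-KO replicate 1 or 3, with an adjusted p of up to 0.188. Zfp773 averaged 4.29 ± 0.226 CPM in libraries labelled Rif1-KO and 6.24 ± 1.41 CPM in control (−0.55 ± 0.18, adjusted p = 0.0156). Its call was lost with DESeq2 and without control replicate 1 or 3 or Rif1-KO replicate 2, with an adjusted p of up to 0.0937.

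Silencing by KRAB proteins rests on shared cofactors, and more of these were lower than higher. Of 29 tested genes on a list of such cofactors, 14 were lower, 3 were higher (H3f3b, Zmym2 and Chd3) and 12 did not pass, beside 24.8% lower and 26.1% higher among all tested genes. Most of them were read at high levels, where lower calls were also more frequent over the whole table. Of the 19 cofactors above 100 CPM, 9 were lower (47.4%) and 2 higher (10.5%), beside 40.3% lower and 27.8% higher of all genes at that level. Of the 10 cofactors below 100 CPM, 5 were lower (50%) and 1 was higher (10%). In the bands of all tested genes below 100 CPM, 10.3% to 28.4% were lower and 24% to 27.6% higher. Trim28, the corepressor that KRAB domains bind, had 811, 814 and 732 CPM in libraries labelled Rif1-KO and 1127, 1066 and 1073 CPM in control. The groups did not overlap, and the log2 fold change was −0.47 ± 0.05 (adjusted p = 1.81e-07). Dnmt1, the maintenance DNA methyltransferase, averaged 545 ± 17.1 CPM in libraries labelled Rif1-KO and 764 ± 23.3 CPM in control (−0.49 ± 0.05, adjusted p = 3.77e-08). Atf7ip, the partner that protects SETDB1, averaged 94.8 ± 4.94 CPM in libraries labelled Rif1-KO and 131 ± 4.31 CPM in control (−0.46 ± 0.05, adjusted p = 3.49e-07). Hdac1, a histone deacetylase, averaged 90.0 ± 1.84 CPM in libraries labelled Rif1-KO and 117 ± 1.29 CPM in control (−0.38 ± 0.05, adjusted p = 1.79e-06). Setdb1 itself, at 170.1, 176 and 169 CPM in libraries labelled Rif1-KO against 180.0, 177 and 179 CPM in control, did not overlap between groups but did not pass (adjusted p = 0.300), and was called lower with the GC and length offset (log2 −0.19, adjusted p = 8.85e-04).

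The members with a KRAB match had fewer calls than those without one. Of 80 tested members with a match, 9 were higher and 14 lower (28.8% called), with a median log2 fold change of −0.04. Of 52 without a match, 11 were higher and 13 lower (46.2%), with a median of −0.07. Both shares were below the 50.9% of all tested genes. A KRAB domain that departs from the searched pattern would count here as no match. The 2 classes also differed in level and composition, with a median mean of 11.6 CPM and a median GC content of 41.2% with a match, and of 14.4 CPM and 50.9% without one, and the part of these in the counts was not tested. With the GC and length offset, 4 of the 80 KRAB members were higher and 30 lower (42.5% called). Of the 52 without a match, 10 were then higher and 19 lower (55.8%). Lower calls also outnumbered higher ones over all 14250 tested genes in that fit, with 2841 higher and 4823 lower (53.8% called). Of the 4 members that rose at least 2-fold, Zfp677 alone had a KRAB match.

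Of 19 tested members with a studied role, 4 were higher, 4 lower and 11 did not pass. The share called, 42.1%, stood beside 35.6% of all tested members and 50.9% of all tested genes. The higher ones were Zfp711, Zfp703, Zfp961 and Zfp746, and the lower ones Zfp819, Zfp687, Zfp827 and Zfp668. Zfp809, the KRAB protein that silences proline-primed retroviruses in embryonic stem cells, had 34.9, 35.7 and 39.4 CPM in libraries labelled Rif1-KO and 28, 35.8 and 35.7 CPM in control. The groups overlapped (log2 fold change 0.14 ± 0.09, adjusted p = 0.188). Zfp932, another binder of retroviral elements, averaged 10.3 ± 1.03 CPM in libraries labelled Rif1-KO and 12.8 ± 1.70 CPM in control (adjusted p = 0.0589; 0.00384, lower, with the GC and length offset), with 45.2% of its 50-base stretches in another gene. Zfp708, known to bind RMER19B elements, averaged 10.9 ± 1.54 CPM in libraries labelled Rif1-KO and 11.8 ± 0.955 CPM in control (adjusted p = 0.415; 0.0357, lower, with the offset), and all of its stretches occurred in another gene. Zfp819, a KRAB gene studied in pluripotency and retroviral silencing, was lower, at 3.98, 4.55 and 5.03 CPM in libraries labelled Rif1-KO against 5.95, 7.29 and 6.19 CPM in control. Its log2 fold change was −0.52 ± 0.17 (adjusted p = 0.0125), and its call was lost with DESeq2 and without control replicate 2 or Rif1-KO replicate 1, with an adjusted p of up to 0.0937.

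Further members known as partners of other chromatin proteins gave both called and uncalled values. Zfp644, a partner of the H3K9 methyltransferases G9a and GLP, averaged 66.4 ± 3.82 CPM in libraries labelled Rif1-KO and 70.4 ± 2.06 CPM in control (adjusted p = 0.229; 3.19e-05, lower, with the GC and length offset). Zfp687, known from a complex with ZMYND8, was lower at 60.7 ± 2.58 CPM in libraries labelled Rif1-KO against 72.7 ± 2.52 CPM in control (−0.26 ± 0.06, adjusted p = 7.27e-04). Zfp827, which is known to bring the NuRD complex to telomeres, had 16.7, 12.8 and 14.9 CPM in libraries labelled Rif1-KO against 16.7, 18.6 and 19 CPM in control and was called lower although the groups overlapped (adjusted p = 0.0392). The Zfp827 call was lost under 6 of 15 alternatives, DESeq2, library totals alone and the fits without control replicate 2 or 3 or Rif1-KO replicate 2 or 3, with an adjusted p of up to 0.194. Zfp618, a partner of UHRF2, had 1.45, 1.82 and 2.08 CPM in libraries labelled Rif1-KO against 1.19, 1.21 and 0.774 CPM in control and did not pass although the groups did not overlap (adjusted p = 0.0577; 0.049, higher, without Rif1-KO replicate 1). Zfp609, Zfp622, Zfp750 and Zfp830 did not pass either, with log2 fold changes from −0.18 to 0.22 and adjusted p from 0.172 to 0.451. Leaving out Rif1-KO replicate 3 made Zfp830 (log2 −0.31, adjusted p = 0.012) and Zfp609 (−0.15, adjusted p = 0.0284) lower, and leaving out Rif1-KO replicate 1 made Zfp750 higher (0.38, adjusted p = 0.0161). Zfp609 was also called lower with the GC and length offset (log2 −0.17, adjusted p = 0.0143). Zfp638 was not analysed here.

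Many of the members lie in chromosome clusters. Members were joined into a cluster where neighbours lay within 1 Mb on the reference, and runs of at least 4 gave 10 clusters with 62 tested members. In clusters 10 members were higher and 10 lower (16.1% each), with a median log2 fold change of 0.05. Outside clusters 10 were higher and 17 lower of 70 (14.3% and 24.3%), with a median of −0.10. Among all tested genes 26.1% were higher and 24.8% lower. Genes of a cluster are not replicates, the clusters were described and not tested, and no test of a difference between them was made.

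**Figure D3:**
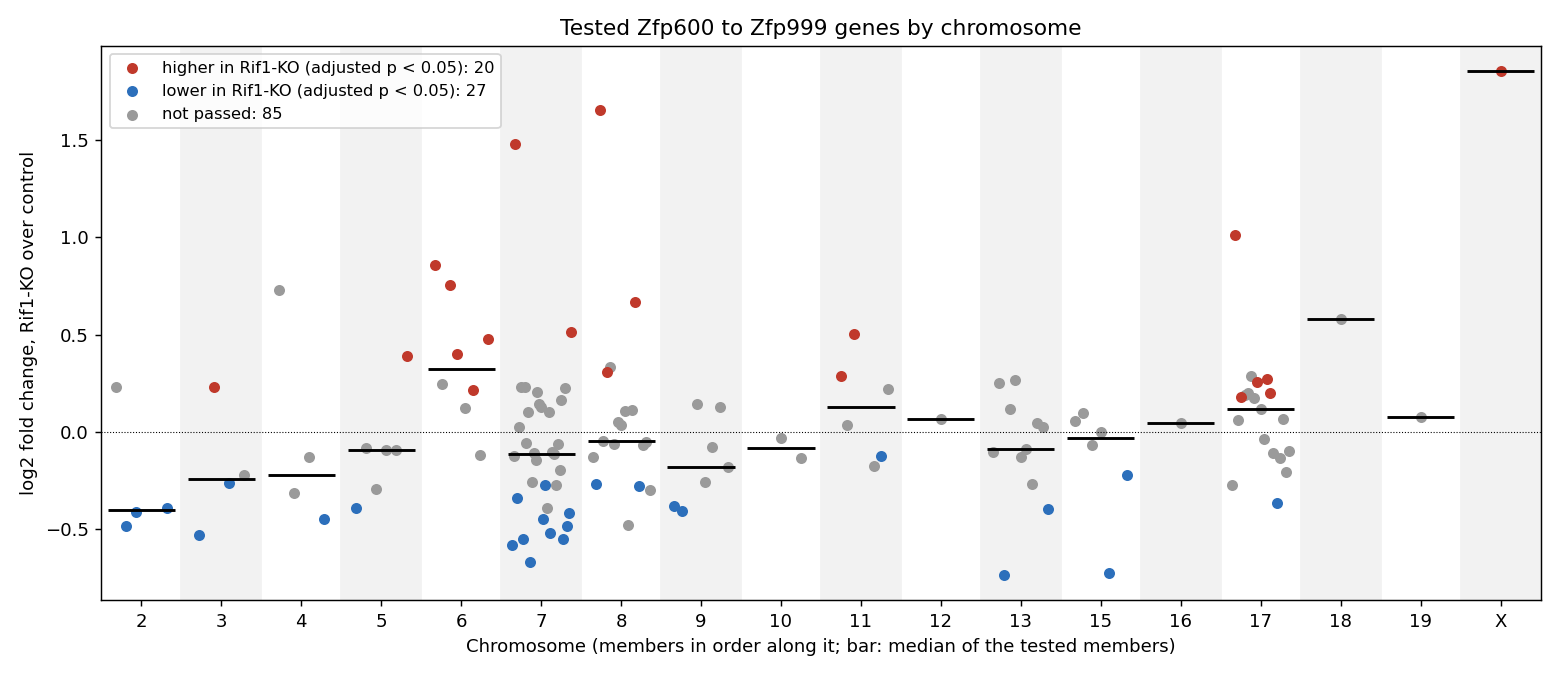
Log2 fold change, Rif1-KO over control, of the 132 tested members in their order along each chromosome, with a bar at the median of each chromosome. The 8 tested members of chromosome 6 had a median of 0.32 and the 19 of chromosome 17 a median of 0.12. The 33 of chromosome 7 had a median of −0.11, and the median of −0.40 on chromosome 2 rests on 4 tested members.

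On chromosome 6, 5 of 8 tested members were higher and the other 3 did not pass, beside 31% higher and 25.6% lower of the other tested genes on it. In its cluster of 6, Zfp783, Zfp956 and Zfp746 were higher. Zfp956 had 11.7, 9.09 and 11.5 CPM in libraries labelled Rif1-KO and 7.14, 8.63 and 8.85 CPM in control (0.40 ± 0.14, adjusted p = 0.0225). Zfp746, which encodes PARIS, a repressor of the mitochondrial regulator PGC-1α, had 23.9, 25.5 and 23.5 CPM in libraries labelled Rif1-KO against 21.8, 20.7 and 20.2 CPM in control (0.21 ± 0.09, adjusted p = 0.0417). Zfp783, an annotated pseudogene, had 2.89, 2.32 and 4.48 CPM in libraries labelled Rif1-KO against 1.73, 1.70 and 2.21 CPM in control (0.76 ± 0.27, adjusted p = 0.0253). In each of these 3 genes the lowest library labelled Rif1-KO stood above the highest control library. None of the 3 calls was made by DESeq2, and the cluster kept 1 or 2 calls when any 1 of the 6 libraries was left out. Zfp783 had a log2 fold change of 0.47 (adjusted p = 0.169) without Rif1-KO replicate 3. Zfp777, a KRAB member, had 23.0, 26.2 and 26.4 CPM in libraries labelled Rif1-KO against 22.4, 23.3 and 23.7 CPM in control and did not pass (adjusted p = 0.258).

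On chromosome 7, the 33 tested members gave 2 higher and 10 lower calls (6.06% and 30.3%), beside 21.4% and 29.5% of the other genes there. The 3 clusters of that chromosome held 8 of the lower calls, and both higher calls, Zfp784 and Zfp941, lay outside them. In the second cluster, Zfp936, Zfp715 and Zfp819 were lower and the median of 5 members was −0.39. Zfp715, a KRAB member with 18 fingers, had 27.4, 26.1 and 28.1 CPM in libraries labelled Rif1-KO and 34.1, 30.7 and 33.8 CPM in control (−0.28 ± 0.08, adjusted p = 0.00513). Zfp936 had 9.13, 6.57 and 10.1 CPM in libraries labelled Rif1-KO against 11.8, 11.9 and 11.5 CPM in control (−0.45 ± 0.14, adjusted p = 0.0111). In both the groups did not overlap, but without Rif1-KO replicate 2 the Zfp936 log2 fold change was −0.30 (adjusted p = 0.081), and DESeq2 did not call it (adjusted p = 0.0545). In the third cluster, with 9 members and a median of −0.20, Zfp689, Zfp668 and Zfp646 were lower. Its median was −0.08 without Rif1-KO replicate 2 and −0.11 without control replicate 2. Zfp689 averaged 6.98 ± 1.07 CPM in libraries labelled Rif1-KO and 10.3 ± 1.51 CPM in control (adjusted p = 0.00425 by edgeR). Zfp668, whose human counterpart is known in p53 regulation and DNA repair, averaged 11.3 ± 1.03 CPM in libraries labelled Rif1-KO and 15.8 ± 1.22 CPM in control (adjusted p = 0.00126 by edgeR). The 3 calls of the third cluster were also made by DESeq2, with the GC and length offset and when any 1 library was left out. In the first cluster Zfp773 and Zfp787 were lower, while 3 of its 5 members had a log2 fold change above 0 and the median was 0.02. Zfp787 averaged 7.83 ± 0.155 CPM in libraries labelled Rif1-KO and 9.93 ± 1.39 CPM in control (adjusted p = 0.0399 by edgeR), and its log2 fold change of −0.34 became −0.23 without control replicate 3 (adjusted p = 0.225). The Zfp787 call was lost under 6 of 15 alternatives, DESeq2 (adjusted p = 0.177), library totals alone and the fits without control replicate 3 or any 1 of the libraries labelled Rif1-KO.

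The chromosome 17 cluster whose start regions are shown above leaned upward by a small amount. Of its 11 members, 4 were higher, 7 did not pass and 10 had a log2 fold change above 0, with a median of 0.19. The other tested genes of chromosome 17 were 21.2% higher and 29.4% lower, with a median of −0.06. Their median GC content was 53.1%, against 37.4% in the cluster. Among all tested genes below 40% GC, 37.5% were higher and 13% lower, with a median of 0.12. The share of higher calls in the cluster, 36.4%, was thus close to that of all genes poor in GC. Zfp945, the KRAB member read most among the 4, had 84.9, 82.9 and 92.3 CPM in libraries labelled Rif1-KO and 72.1, 69.7 and 73.7 CPM in control. Every library labelled Rif1-KO was higher (0.27 ± 0.06, adjusted p = 4.89e-04). Zfp944 had 23.2, 22.5 and 22.4 CPM in libraries labelled Rif1-KO against 18.5, 19.3 and 19.5 CPM in control (0.25 ± 0.09, adjusted p = 0.0191). Zfp760 had 49.6, 46.9 and 48.7 CPM in libraries labelled Rif1-KO against 44.7, 42 and 41.4 CPM in control (0.18 ± 0.06, adjusted p = 0.0244). In both the groups did not overlap. DESeq2 made 2 of the 4 calls of the cluster, those of Zfp945 and Zfp677. It did not call Zfp944 (adjusted p = 0.152), which was also lost without control replicate 1 or Rif1-KO replicate 1. Nor did it call Zfp760 (adjusted p = 0.158), which was also lost without control replicate 2 or 3 or Rif1-KO replicate 1.

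The upward lean was smaller with the offset, which corrects for GC content and length at once, and the part of each was not tested. The offset also moved the median of all tested genes, from 0.00347 to −0.0855. The median of the cluster stood above that of all tested genes in both fits. The members of the cluster had a median GC content of 37.4%, and with the GC and length offset their median log2 fold change was 0.00, with 6 of 11 above 0 and Zfp677 alone still called higher (0.82, adjusted p = 0.0105). Zfp945 then stood at 0.02 (adjusted p = 0.732), Zfp944 at 0.06 (adjusted p = 0.563) and Zfp760 at −0.02 (adjusted p = 0.853). The chromosome 6 cluster kept a median of 0.23 and its 3 calls with the offset, and the second chromosome 7 cluster stood at −0.47 with its 3 calls.

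Among the 112 tested members with a start region, calls were made both with and without the E-box. Of the 4 members of the cluster that were higher, Zfp944 alone had it, while Zfp942, Zfp943, Zfp947, Zfp758, Zfp820 and Zfp946 had it and did not pass. The divergent pair of Zfp942 and Zfp943 stood at log2 fold changes of 0.20 and 0.28, and the pair of Zfp944 and Zfp758 at 0.25 and 0.12. Over all 112, 2 of the 14 with the E-box were higher and 2 lower, with a median log2 fold change of 0.13, and of the 98 without it 16 were higher and 19 lower, with a median of −0.06. Of the 14, 7 lay in this cluster. Over all tested genes, 241 were higher and 238 lower of 839 with the E-box (median −0.02), and 2324 higher and 2280 lower of 8784 without it (median 0.00).

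**Figure D4:**
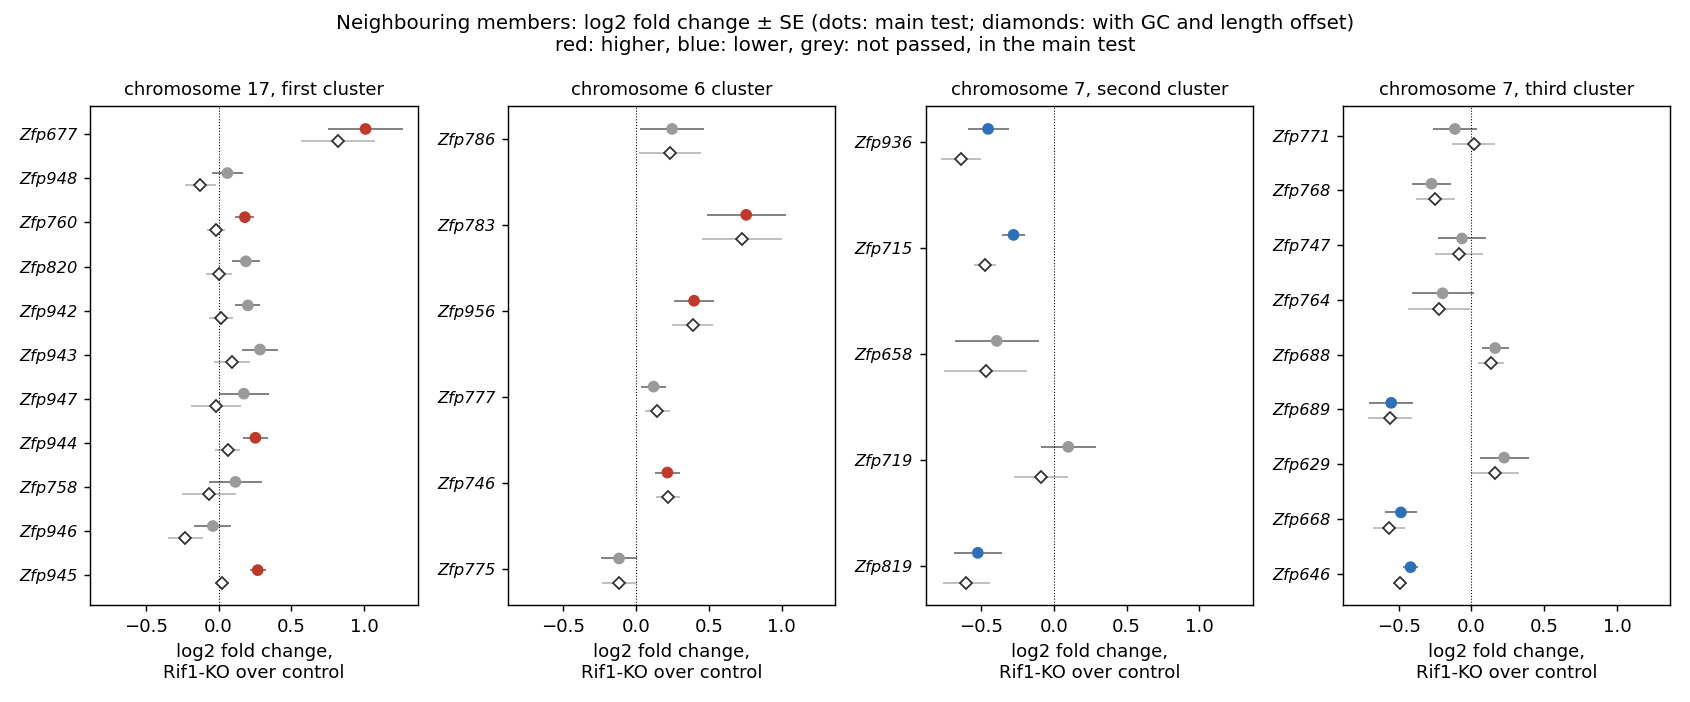
Log2 fold change with SE, Rif1-KO over control, for the members of 4 clusters in chromosome order, from the test as reported (dots) and with the GC and length offset (diamonds). In the chromosome 17 cluster the median of 0.19 became 0.00 with the offset, whereas the chromosome 6 cluster stayed at 0.23. The median of all tested genes was 0.00347 without the offset and −0.0855 with it.

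The other clusters had few calls. In the second chromosome 17 cluster, with 6 members and a median of −0.12, Zfp799 was lower at 22.5 ± 3.16 CPM in libraries labelled Rif1-KO against 28.9 ± 1.77 CPM in control (−0.37 ± 0.10, adjusted p = 0.00307). Its neighbour Zfp871 was higher at 98.5 ± 10.2 CPM in libraries labelled Rif1-KO against 85.5 ± 3.69 CPM in control (0.20 ± 0.06, adjusted p = 0.0139), but at −0.07 with the GC and length offset (adjusted p = 0.316) and at 0.12 without Rif1-KO replicate 3 (adjusted p = 0.0969). In the chromosome 13 cluster of 7 members, with a median of 0.02, the test as reported made no edgeR call (1 member, Zfp953, had an unadjusted p under 0.05), and neither did DESeq2. With the GC and length offset 2 of its members were lower, Zfp953 (adjusted p = 0.00348) and Zfp708, and without Rif1-KO replicate 1 it gave 1 higher and 1 lower call. The chromosome 8 clusters, with 6 and 4 members, held 1 higher call each, Zfp868 (31.4 ± 2.36 CPM in libraries labelled Rif1-KO against 25.4 ± 0.564 CPM in control, adjusted p = 0.00346 by edgeR; 0.136 with the offset) and Zfp961. In the chromosome 9 cluster, Zfp653 was lower at 9.16 ± 0.475 CPM in libraries labelled Rif1-KO against 12.1 ± 0.139 CPM in control (adjusted p = 0.00624 by edgeR; 0.0594 with DESeq2), 3 of its 4 members were tested, and Zfp809 did not pass.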

How the data were processed

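RNA was measured in 3 libraries labelled Rif1-KO and 3 labelled control, grouped by their titles. The authors deposited 1 table of raw counts for each library, by gene symbol and not normalized. STAR and featureCounts 1.6.2 with build mm9 are named per the submitters' processing notes. Annotation, strand setting and the treatment of multiply mapping reads are not given in the sources at hand, so counts of near-identical, overlapping or antisense genes are uncertain.

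The counts of all 33924 symbols went into edgeR 4.0.16 (R 4.3.3), with TMM scaling, filterByExpr at a minimum count of 10 and a quasi-likelihood test of group. A call, higher or lower, needs a p below 0.05 after Benjamini-Hochberg adjustment over the 14250 genes tested, and each adjusted p is from this test unless another is named. Fold changes are Rif1-KO over control. The test was checked on simulated data. Errors are SE for log2 fold changes and SD for CPM (n = 3). Levels per kilobase use the longest transcript. Chromosome, order, GC content, length, shared sequence, fingers and KRAB matches came from GENCODE M21 (140 members matched by symbol, 2 by synonym), start regions from RefSeq (121 of 142 members). The start regions were searched with values known.

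The members and lists were chosen with earlier results of these data known. Named are Rif1, the 10 largest increases and 10 largest decreases among called members whose groups do not overlap and whose higher group averages 1 CPM or more, the 4 highest per kilobase, up to 2 called per cluster, a list of studied members, and 4 cofactors by adjusted p with Trim28 and Setdb1. Zfp646, Zfp760 and Zfp944 among others are also named as the called members of their clusters. The alternatives were DESeq2 1.42.0, limma-voom (limma 3.58.1), other scalings and filters, a replicate block, an offset for GC content and length (spline with 5 degrees of freedom), leaving out each library, and leaving out members that share sequence.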

Additional observations from a re-analysis of the deposited data

How the results depend on the processing

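Of the 47 calls on members, 22 (9 higher, 13 lower) were made under all 15 alternatives. DESeq2 called 11 members higher and 15 lower, all 26 of them among the 47. The GC and length offset called 14 higher and 49 lower, with 41 of these 63 among the 47 and a median log2 fold change of −0.179. The offset together with the replicate block gave 48 lower and a median of −0.179. Leaving out members that share over 10% of their 50-base stretches gave 17 higher and 17 lower of 100 tested, with a median of −0.0162. With no filter on low counts, 34.5% of 139 members were called, beside 31.6% of 24017 genes. In that fit the share of called members was thus not the smaller one. The test as reported took in 132 members and 14250 genes, so the fit without the filter added many genes with low counts but few members. Without 1 library, the members gave 15 to 21 higher and 21 to 27 lower calls and a median of −0.0537 to −0.0203, and all genes gave 3288 to 3667 higher and 3037 to 3432 lower calls. Under the offset, without and with the replicate block, Zfp871 turned to −0.0655 and −0.0647 and Zfp760 to −0.0157 and −0.0165. The replicate numbers did not pair the libraries (correlations of same-numbered libraries of 0.0648, −0.0574 and 0.0376), and the replicate block gave 22 higher and 27 lower members, 47 of these 49 shared. Rif1 passed under 9 of the 15 alternatives, with an adjusted p from 1.86e-07 to 0.212. The cause of these differences was not tested. Depth limits the members below about 5 CPM, where 1 count was worth 0.0904 to 0.121 CPM.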

Other observations

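KRAB zinc finger genes carrying other names than a numbered Zfp symbol leaned lower. The pattern search found 101 of them in the table, and of the 73 tested, 4 were higher (5.48%) and 19 lower (26%) in the libraries labelled Rif1-KO. Among all tested genes 26.1% were higher and 24.8% lower, so higher calls were rarer and lower calls about as frequent. The median log2 fold change of the 73 was −0.18, beside −0.04 for the 80 tested KRAB members described above. Over all 221 tested KRAB zinc finger genes, 19 were higher and 47 lower (8.60% and 21.3%), beside 26.1% and 24.8% of all tested genes. Their median GC content was 40.5%, and no test of the difference between the 2 groups of names was made.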
